A study of Homo sapiens with 4 samples.

Results

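Adaptor proteins connect messenger RNAs to the enzymes that shorten their poly(A) tails. The adaptor genes described here are *BTG1*, *BTG2*, *BTG3*, *TOB1*, *TOB2*, *ZFP36*, *ZFP36L1*, *ZFP36L2* and *PUM2*, chosen by gene symbol for known function. The choice used no measured value as a criterion, but it was made with earlier results of these data known. All 9 were among the 20457 features of the deposited tables. RNA came from HEK293 cells, an established human line from embryonic kidney, labelled wild type when given a negative control siRNA (siControl) and *CNOT4* knockdown when given siRNA against *CNOT4* (siCNOT4). Both treatments used 10 nM siRNA for 72 h, and each group had 2 libraries of poly(A) RNA. The study asked what *CNOT4*, a ubiquitin ligase associated with the CCR4-NOT deadenylase, does in the link between codon usage and expression. Nothing in the labels says that the libraries of a group came from separate cultures, so p-values measure the spread between these libraries, which may be technical.

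CCR4-NOT is the main deadenylase of the cell and has little sequence preference of its own. Adaptor proteins bring it to particular transcripts. ZFP36 proteins (ZFP36 is also called tristetraprolin) bind AU-rich elements in the 3′ UTR through paired CCCH zinc fingers and contact the scaffold subunit CNOT1. BTG and TOB proteins bind the catalytic subunits CNOT7 and CNOT8 through a shared amino-terminal domain, and TOB1 and TOB2 also bind the poly(A)-binding protein. PUM2 is a Pumilio protein, whose repeats read a short UGUA-containing motif. *ZFP36* and *BTG2* are immediate early genes, meaning that growth signals switch them on quickly, and *BTG2* is also a known p53 target.

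Because ZFP36 and Pumilio proteins bind 3′ UTRs, the members' own 3′ UTRs were searched for the elements these proteins read, in 1 transcript per gene of GENCODE 29 (GRCh38), on the transcript strand. The nonamer TTATTTATT, which contains the pentamer ATTTA, was present once in each of the 3 *ZFP36* family genes and in 0 of the other 6 members. Each site is shown with 10 bases on either side and the nonamer in capitals:
ZFP36, chr19:39409196-39409224, plus strand: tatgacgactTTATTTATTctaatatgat
ZFP36L1, chr14:68788077-68788105, minus strand: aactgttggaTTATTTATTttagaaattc
ZFP36L2, chr2:43223448-43223476, minus strand: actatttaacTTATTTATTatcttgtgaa

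Of 18870 annotated 3′ UTRs, 7.53% held the nonamer. Among 3′ UTRs within 20% of the member's own length the share was 5.01% for *ZFP36* (713 bases), 8.70% for *ZFP36L1* (1871 bases) and 8.78% for *ZFP36L2* (1917 bases). The pentamer alone occurred in all 9 members, from 2 copies in *BTG2* to 9 in *PUM2*, and in 64.5% of all 3′ UTRs. Among 3′ UTRs within 20% of the member's own length, its share ran from 48.65% for *BTG3* to 97.23% for *BTG1*. The Pumilio motif TGTANATA occurred in *BTG1* (4 copies) and *PUM2* (2 copies) and in 0 of the other 7 members. For *BTG1* 3 of the copies are shown, with the motif in capitals and numbered among those shown, and for *PUM2* both:
BTG1, site 1, chr12:92142978-92143005, minus strand: gaagatgctcTGTATATAcatgtttagg
BTG1, site 2, chr12:92142627-92142654, minus strand: acctgcaagaTGTACATAaaaatcacat
BTG1, site 3, chr12:92140552-92140579, minus strand: tatatgggacTGTAAATAgagaaatctg
PUM2, site 1, chr2:20251143-20251170, minus strand: tttatagagaTGTATATAgaattatagt
PUM2, site 2, chr2:20250883-20250910, minus strand: acagaaatatTGTATATActtacatatg

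That motif was in 23.5% of all 3′ UTRs, in 51.0% of those of *BTG1*'s length (3802 bases) and in 44.0% of those of *PUM2*'s length (2894 bases). A match is a run of letters and not evidence of binding.

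Levels are in TPM, a transcript abundance normalised for length and summing to the same total in each library. The targeted mRNA, *CNOT4*, stood at 6.43 and 4.73 TPM after siControl and at 3.38 and 3.81 TPM after siCNOT4. It was lower in both knockdown libraries without passing the test (log2 fold change -0.51, SE 0.26, limma adjusted p 0.184); after TMM scaling, explained below, it passed (-0.95, limma adjusted p 0.0359). Over all 14208 features with a mean of at least 1 TPM, the median log2 fold change was 0.50, and values relative to this shift are given below where they matter. Of 1792 features called, 89.7% were higher in siCNOT4. That share was 50.7% under TMM scaling (trimmed mean of M values, which assumes that most features did not change) and 46.4% under quantile normalization. Stepwise low values put the depth at 31.2 M to 33.0 M reads a library with the lengths of 1 transcript per gene, or 45.6 M to 47.1 M with all annotated exons (M, 1e6 reads). Of 10 markers of HEK293 cells, 9 were at 1 TPM or more in every library and *NEFM* was below; their sum was 1297 to 1574 TPM in siControl and 1067 to 1103 in siCNOT4, of which *VIM* made 917 and 650 TPM and 369 and 354 TPM. Of 12 markers of other cell types, 9 were below 1 TPM in every library. The sums of these 12 were 278 to 285 and 271 to 276 TPM, mostly *EPCAM* (238 to 262 TPM in all libraries) and then *CD68* (21.9 to 30.7 TPM). The fibroblast marker *COL1A1* was at 1.39 and 0.906 TPM against 5.09 and 6.60 TPM and was called higher. The part of *COL1A1* in the results was not tested. *COL3A1*, the other fibroblast marker listed, was at 0.472 TPM or less in every library. In bulk RNA, fewer expressing cells and less RNA per cell cannot be told apart.

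One adaptor, *ZFP36*, passed the test between the groups, and it was higher in siCNOT4. All 9 members passed the filter on low values, with means over the 4 libraries from 14.2 to 191.7 TPM. The count of 1 called in 9 (11.1%) stood beside 12.6% of all tested features called in either direction, 11.3% called higher and 1.30% called lower. Both siCNOT4 libraries lay above both siControl libraries for *ZFP36*, *PUM2*, *BTG1* and *BTG2*, 4 of 9 members against 66.4% of all features. *TOB1* was the member with both siCNOT4 libraries below, against 10.6% of all features. The median log2 fold change of the members was 0.17, which was 0.33 below the median of all features, and *ZFP36* and *PUM2* were the 2 members above it. The count moved with the siControl libraries, as it did over all features. Without replicate 1, 6 members were called (*ZFP36*, *PUM2*, *ZFP36L1*, *BTG1*, *BTG2* and *BTG3*, all higher), beside 79.6% of all features. Without replicate 2, 4 were called (*ZFP36* higher; *TOB1*, *TOB2* and *ZFP36L2* lower), beside 57.5% of all features. Without siCNOT4 replicate 1 or replicate 2, 0 were called, beside 3.35% and 3.17% of all features.

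**Figure D1:**
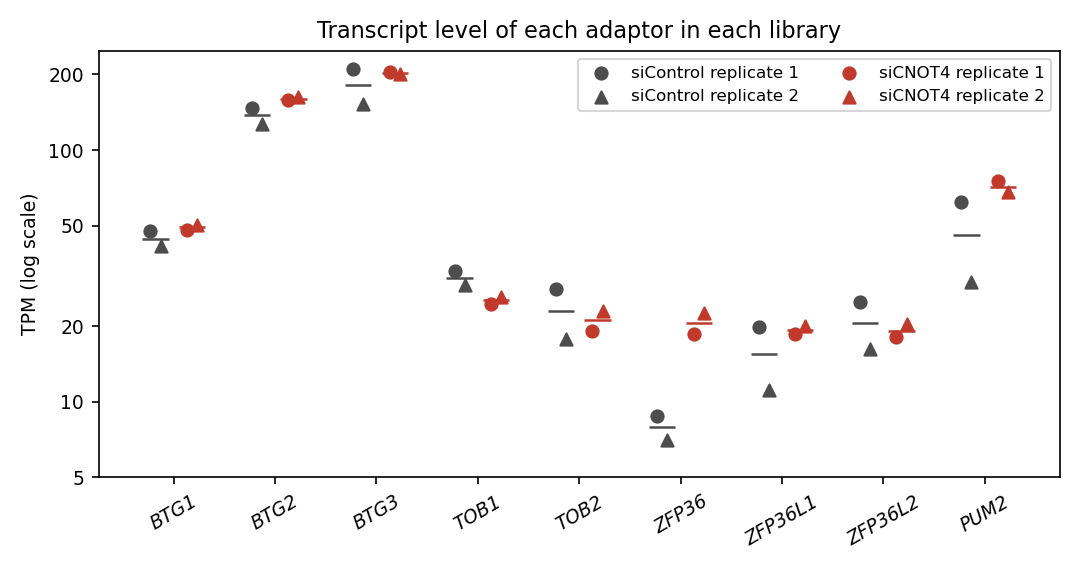
Level of each adaptor in TPM on a log axis, with siControl in grey, siCNOT4 in red, circles for replicate 1, triangles for replicate 2 and a line at each group mean. *ZFP36* has the widest gap between the groups, from 7.02 and 8.81 TPM to 18.5 and 22.5 TPM, while *PUM2* has the widest gap between its siControl libraries.

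**Figure D2:**
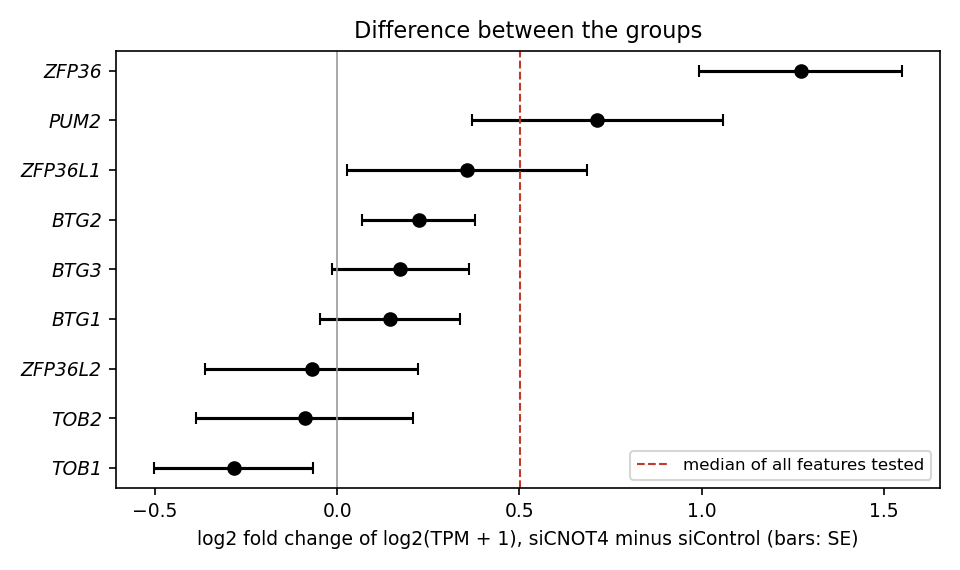
Log2 fold change of each adaptor (points; bars are the SE from limma) with the median of all features tested as a dashed line at 0.50. *ZFP36* at 1.27 and *PUM2* at 0.71 lie to the right of that line and the other 7 members to its left.

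*ZFP36* (ENSG00000128016.5, chr19:39406813-39409412) encodes the best studied AU-rich element binder of the set. Its level was 8.81 and 7.02 TPM after siControl (7.92 ± 1.26, SD, n = 2) and 18.5 and 22.5 TPM after siCNOT4 (20.5 ± 2.77, SD, n = 2). Every siCNOT4 value was more than the higher siControl value, and the ratio of means was 2.59. Its log2 fold change of 1.27 (SE 0.28, 95% interval 0.59 to 1.95) had a limma adjusted p of 0.0436 and exceeded that of 92.4% of tested features. Relative to the median of all features it was higher by 0.77. Counting error was small beside this: about 170 to 204 reads lay behind each siControl value and 376 to 489 behind each siCNOT4 value, and the highest exact Poisson 95% limit of a siControl library (10.2 TPM) lay under the lowest of a siCNOT4 library (16.7 TPM).

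The direction held under all 11 alternatives that were run, with log2 fold changes of 0.68 to 1.55. Because no siControl value reached a siCNOT4 value, only the 3 scalings (TMM, quantile and trend removal) could have turned it. The call held under 4 of the 11. It was lost with a pseudocount of 0.1 (limma adjusted p 0.0563), with no filter (0.0619), with a minimum mean of 5 TPM (0.0644), after TMM scaling (0.0525) and after quantile normalization (0.0565). It was also lost without siCNOT4 replicate 1 (0.369) or replicate 2 (0.476).

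*ZFP36L1* (ENSG00000185650.9, chr14:68787660-68796253) encodes a paralogue with the same finger domain. Its level was 19.8 and 11.1 TPM in siControl and 18.6 and 20.03 TPM in siCNOT4. The groups overlapped, since siControl replicate 1 sat inside the siCNOT4 range and siControl replicate 2 alone was low. Its log2 fold change was 0.36 (SE 0.33, limma adjusted p 0.420), and -0.16 under TMM scaling. It was 0.74 without siControl replicate 1 (limma adjusted p 0.000976) and -0.033 without siControl replicate 2.

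*ZFP36L2* (ENSG00000152518.7, chr2:43222402-43226609), the remaining paralogue, was at 24.99 and 16.2 TPM in siControl and 18.1 and 20.3 TPM in siCNOT4. The siControl libraries lay on either side of both siCNOT4 libraries. The difference was -0.07 on the log2 scale (SE 0.29, 95% interval -0.78 to 0.64, limma adjusted p 0.863). It was -0.62 under quantile normalization (limma adjusted p 0.0450), -0.37 without siControl replicate 2 (limma adjusted p 0.0327) and 0.23 without siControl replicate 1.

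Shares within a library do not depend on how that library was scaled, and they separated the paralogues. *ZFP36* made up 16.4% and 20.4% of the family's summed TPM in siControl and 33.6% and 35.8% in siCNOT4, a difference of 16.2 percentage points. *ZFP36L2* made up 46.6% and 47.2% in siControl and 32.7% and 32.3% in siCNOT4, a difference of -14.4 points. The *ZFP36L1* shares overlapped, at 36.9% and 32.4% against 33.7% and 31.9%. For the shares of *ZFP36* and *ZFP36L2* the groups did not overlap, and the exact two-sided permutation test gave p = 0.333 for each, the smallest value that 2 libraries against 2 allow. Shares of a family sum to a fixed total, so a higher *ZFP36* share lowers the others. The *ZFP36L2* share therefore does not measure *ZFP36L2* alone, and its TPM overlapped between the groups. Set against *ZFP36L2*, *ZFP36* was at 0.352 and 0.434 times its level after siControl and at 1.03 and 1.11 times after siCNOT4. In siControl, *ZFP36* was thus the rarest of the 3 mRNAs, and in siCNOT4 the 3 lay between 18.1 and 22.5 TPM and their library values overlapped. The family's summed level was 53.6 and 34.3 TPM against 55.2 and 62.8 TPM, with an exact permutation p of 0.333. Leaving out each library in turn gave 14.2 to 18.2 points for the difference in the *ZFP36* share.

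**Figure D3:**
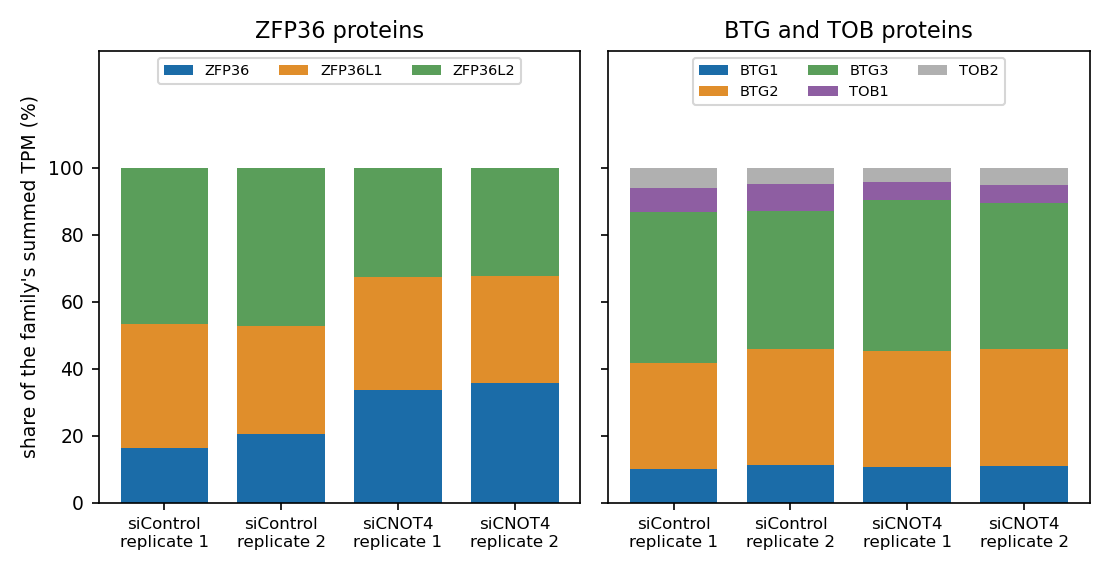
Share of each gene in its family's summed TPM (percent, stacked to 100) in each of the 4 libraries, for the ZFP36 proteins on the left and the BTG and TOB proteins on the right. The *ZFP36* share is 16.4% and 20.4% in siControl and 33.6% and 35.8% in siCNOT4, and the *ZFP36L2* share 46.6% and 47.2% against 32.7% and 32.3%; in the right panel *TOB1* goes from 7.08% and 7.90% to 5.42% and 5.63%.

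Upstream sequence is shown for the called gene because *EGR1*, an immediate early transcription factor, was also called. Promoter windows, from 250 bases before to 50 after the RefSeq start (GRCh38.p14), were found for 8 of the 9 members, all but *ZFP36L2*. Searched on both strands, the *ZFP36* window held 2 GC boxes (GCCCCGCCC), 0 EGR motifs (GCGNGGGCG) and 0 CArG boxes, the sites of serum response factor. These motifs were in 13.6%, 9.43% and 1.29% of 35116 such windows. Among the other members, *BTG2*, *BTG3* and *TOB2* held 1 GC box each, *BTG2* held 2 EGR motifs and *ZFP36L1* 1 (in 1 of its 2 windows), and CArG boxes were in 0. The stretch from 120 to 41 bases upstream, with the GC boxes in capitals, reads:
ZFP36, chr19:39406727-39406806, plus strand: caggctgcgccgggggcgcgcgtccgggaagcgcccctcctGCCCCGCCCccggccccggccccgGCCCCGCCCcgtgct

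The EGR motifs of *BTG2* are in capitals in the stretch from 180 to 131 bases upstream:
BTG2, chr1:203305339-203305388, plus strand: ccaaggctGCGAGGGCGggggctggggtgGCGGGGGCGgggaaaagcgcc

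For comparison, the *EGR1* window held 1 EGR motif and 2 CArG boxes. The absence of a match says only that these letters are not in the window.

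*BTG2* (ENSG00000159388.5, chr1:203305491-203309602) encodes an antiproliferative protein that binds the deadenylases directly. It was at 147.4 and 127.5 TPM in siControl and 157.8 and 162.6 TPM in siCNOT4. Both siCNOT4 values were above both siControl values by a small margin. The difference was 0.22 on the log2 scale (SE 0.16, limma adjusted p 0.293), -0.32 under TMM scaling, and 0.33 without siControl replicate 1 (limma adjusted p 0.00649).

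*BTG1* (ENSG00000133639.4, chr12:92140278-92145897), the closest relative of *BTG2*, was at 47.5 and 41.6 TPM in siControl and 48.1 and 50.5 TPM in siCNOT4. Its groups were separated by less than the gap between the siControl libraries. On the log2 scale the difference was 0.15 (SE 0.19, limma adjusted p 0.569). It turned to -0.39 under TMM scaling, -0.26 under quantile normalization and -0.18 after removal of length and GC trends, and was 0.24 without siControl replicate 1 (limma adjusted p 0.0403). Annotated genes that are not among the listed features, *AC025164.1* and *LINC01619*, overlap this locus.

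*BTG3* (ENSG00000154640.14, chr21:17593653-17612947) was the most abundant adaptor, at 209.6 and 153.1 TPM in siControl and 203.7 and 200.5 TPM in siCNOT4. The siCNOT4 libraries lay inside the siControl range. Its log2 fold change was 0.17 (SE 0.19, 95% interval -0.28 to 0.63, limma adjusted p 0.489). It was -0.37 under TMM scaling, 0.40 without siControl replicate 1 (limma adjusted p 0.00237) and -0.053 without siControl replicate 2. *BTG3-AS1* overlaps this locus on the opposite strand.

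*TOB1* (ENSG00000141232.4, chr17:50862223-50867978), whose product links the deadenylases to the poly(A)-binding protein, was at 32.9 and 29.2 TPM in siControl and 24.6 and 26.0 TPM in siCNOT4. It was lower in both siCNOT4 libraries, in contrast to 81.2% of tested features, whose log2 fold change was above 0. The log2 fold change was -0.28 (SE 0.22, limma adjusted p 0.337), or -0.78 relative to the median of all features. It passed the threshold under TMM scaling (-0.81, limma adjusted p 0.0467), under quantile normalization (-0.78, limma adjusted p 0.0357) and without siControl replicate 2 (-0.37, limma adjusted p 0.0189). Across all 11 alternatives the direction was the same, from -0.81 to -0.20. Since the groups did not overlap, only the 3 scalings (TMM, quantile and trend removal) could have turned it.

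The share of *TOB1* in the summed TPM of the 5 BTG and TOB genes was 7.08% and 7.90% after siControl and 5.42% and 5.63% in siCNOT4. For each *BTG2* transcript the siControl libraries held 0.224 and 0.229 *TOB1* transcripts and the siCNOT4 libraries 0.156 and 0.160. That separation was many times the gap within either group. As *BTG2* itself had a log2 fold change of 0.22, this ratio does not measure *TOB1* alone. Against its paralogue *TOB2*, *TOB1* was at 1.17 and 1.64 times the level after siControl and at 1.28 and 1.13 times after siCNOT4, where the groups overlapped (exact two-sided permutation p = 0.667). For the share and the ratio to *BTG2* the exact two-sided permutation p was 0.333, the smallest possible. The antisense gene *TOB1-AS1*, named for its position, overlaps the *TOB1* locus on the opposite strand by 1300 bases. It was at 5.29 and 4.80 TPM in siControl and 2.29 and 1.97 TPM in siCNOT4, with a log2 fold change of -0.95 and a limma adjusted p of 0.0481. Use of strand in the counting is not given in the sources used here, so reads of the overlap cannot be told apart.

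*TOB2* (ENSG00000183864.4, chr22:41433492-41447023) was at 28.0 and 17.8 TPM in siControl and 19.2 and 23.0 TPM in siCNOT4. Both siCNOT4 libraries fell between the siControl libraries. The difference of -0.09 on the log2 scale (SE 0.30, 95% interval -0.81 to 0.63) had a limma adjusted p of 0.828. It was -0.61 under TMM scaling (limma adjusted p 0.0714) and -0.63 under quantile normalization (limma adjusted p 0.0507). It was -0.40 without siControl replicate 2 (limma adjusted p 0.0384) and 0.22 without siControl replicate 1. *TOB2P1*, a pseudogene of *TOB2* on chromosome 6, was at 10.1 and 5.64 TPM against 5.96 and 7.94 TPM, and the division of reads between the copies is uncertain.

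*PUM2* (ENSG00000055917.15, chr2:20248691-20352234) was at 62.4 and 29.9 TPM in siControl and 75.2 and 68.1 TPM in siCNOT4. Both siCNOT4 libraries were above, but the siControl libraries differed from each other by a factor of 2.09. Its log2 fold change was 0.71 (SE 0.35, 95% interval -0.12 to 1.55, limma adjusted p 0.160). It was 1.23 without siControl replicate 1 (limma adjusted p 9.5e-05) and 0.20 without siControl replicate 2 (0.118). It was 0.18 under TMM scaling (limma adjusted p 0.606) and 0.31 under quantile normalization (limma adjusted p 0.362), so both the siControl library kept and the scaling moved its size. With each library's trend on transcript length and GC content removed it was 0.36 (limma adjusted p 0.276). The *PUM2* transcript was the longest of the set at 6112 bases, and the 2 shortest were *BTG3* (1456 bases) and *ZFP36* (1786 bases).

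In all 9 members siControl replicate 1 was above siControl replicate 2, by 0.17 (*TOB1*) to 1.04 (*PUM2*) on the log2(TPM + 1) scale. The median over members was 0.45, beside 0.38 over all features. The siCNOT4 libraries differed by at most 0.26 in either direction. For *ZFP36* the difference between groups (1.27) was larger than that between the siControl libraries (0.29), and for *TOB1* it was -0.28 against 0.17. For *BTG2* the difference between groups was barely larger, at 0.22 against 0.21. For *PUM2*, *ZFP36L1*, *ZFP36L2*, *TOB2*, *BTG3* and *BTG1* the difference between groups was smaller than that between the siControl libraries.

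**Figure D4:**
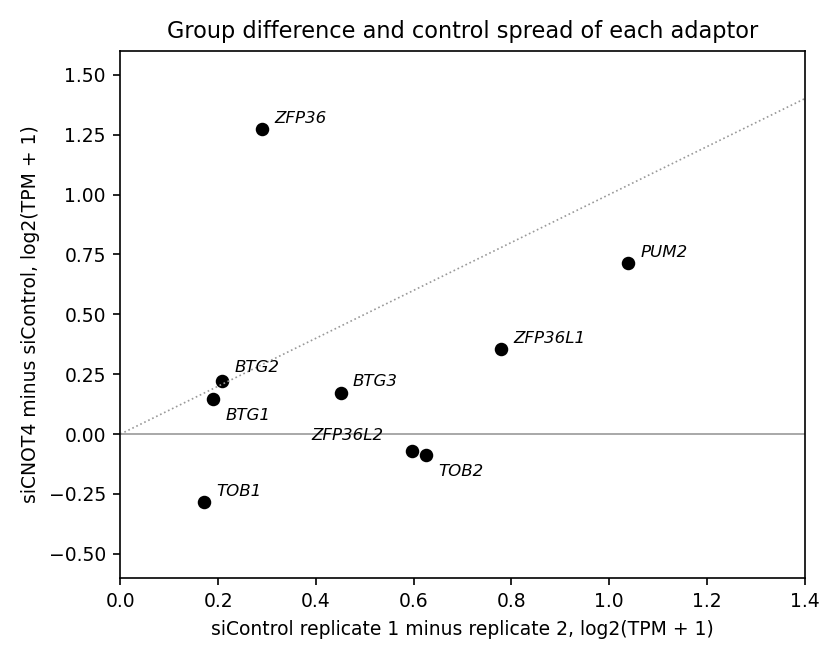
Difference between groups (y axis) against the difference between the siControl replicates (x axis) for each adaptor, both on the log2(TPM + 1) scale, with a dotted line where they are equal. *ZFP36* lies far above the line at 1.27 against 0.29, and *PUM2* below it at 0.71 against 1.04.

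TPM is a level per length, so the adaptors can be ranked. In siControl the order of means was *BTG3* (181.4 TPM), *BTG2* (137.4), *PUM2* (46.1), *BTG1* (44.6), *TOB1* (31.1), *TOB2* (22.9), *ZFP36L2* (20.6), *ZFP36L1* (15.5) and *ZFP36* (7.92). Of neighbours in this order, library values overlapped between *PUM2* and *BTG1*, between *TOB2* and *ZFP36L2*, and between *ZFP36L2* and *ZFP36L1*. Farther apart in the order, *PUM2* also overlapped *TOB1*, and *TOB2* overlapped *ZFP36L1*. In siCNOT4 the first 6 kept their places, with *PUM2* at 71.7 TPM and *BTG1* at 49.3 TPM no longer overlapping. *ZFP36* moved from place 9 to place 7, among 4 genes (*TOB2*, *ZFP36*, *ZFP36L1*, *ZFP36L2*) whose neighbours overlapped.

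**Figure D5:**
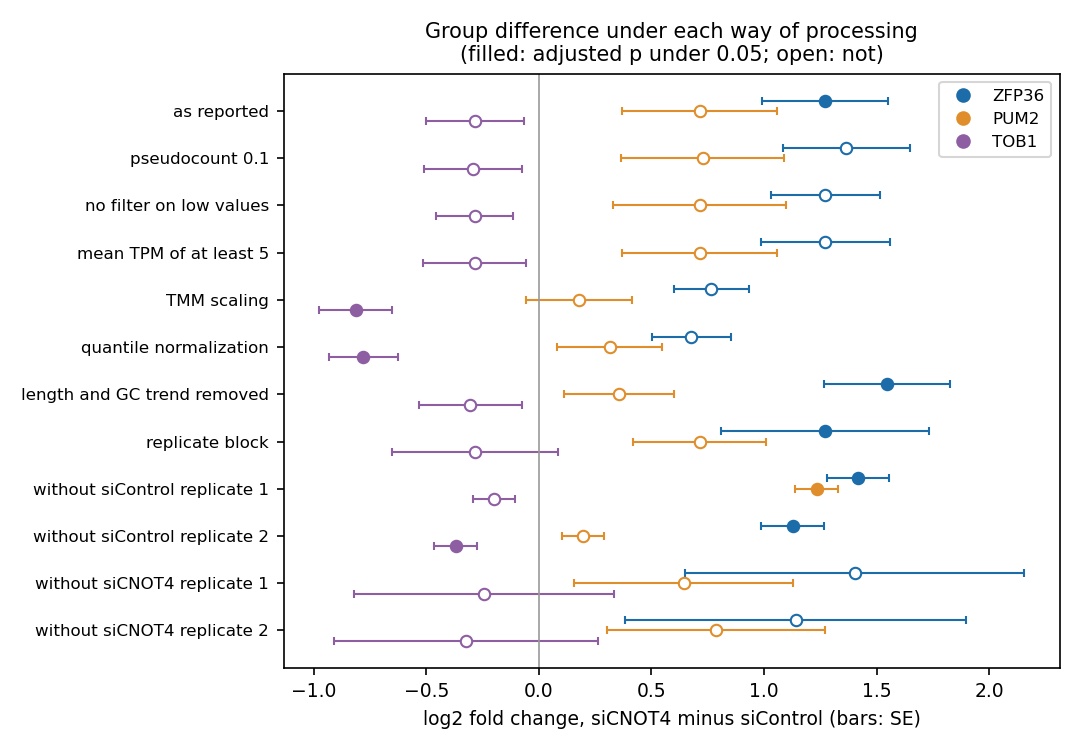
Log2 fold change (x axis, bars are SE) of *ZFP36*, *PUM2* and *TOB1* under the reported processing and the 11 alternatives (y axis), with filled points where the limma adjusted p was under 0.05. *ZFP36* stays above 0 and *TOB1* below 0 throughout, and *PUM2* ranges from 0.18 under TMM scaling to 1.23 without siControl replicate 1. The groups did not overlap for any of these genes, so only the 3 scalings could have turned a direction.

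The enzymes that the adaptors recruit showed no call. Of 14 deadenylase subunits and associated proteins, 14 were tested and 0 passed limma's adjusted threshold, beside 12.6% of all features. An unadjusted limma p under 0.05 was found for 7 of them, beside 42.0% of all features. The count passing the adjusted threshold was 2 under TMM scaling, under quantile normalization and after trend removal. Of all features, 8.78%, 15.3% and 25.5% passed in these settings. The median log2 fold change of the 14 was 0.59, beside 0.50 over all features. The scaffold *CNOT1* was at 86.7 and 34.2 TPM against 113.4 and 108.0 TPM (log2 fold change 1.01, limma adjusted p 0.115), another gene whose siControl libraries lay far apart. *PAN2*, the catalytic subunit of the second deadenylase complex, was at 38.2 and 21.8 TPM against 58.1 and 64.0 TPM (1.05, limma adjusted p 0.0604).

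Other adaptors and partners, such as CPEB, Roquin and GW182 proteins, gave 2 calls among 21 tested of 23 listed (9.52%, beside 12.6% of all features), both higher. Their median log2 fold change was 0.73, beside 0.50 over all features. *CPEB3*, a cytoplasmic polyadenylation element binder, was at 1.71 and 0.633 TPM against 5.46 and 5.87 TPM (1.66, limma adjusted p 0.0309). *YTHDF2*, a reader of N6-methyladenosine that recruits CCR4-NOT, was at 72.5 and 47.7 TPM against 114.5 and 121.0 TPM (0.99, limma adjusted p 0.0474).

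Immediate early genes, the class to which *ZFP36* and *BTG2* belong, gave 5 calls among 28 tested of 30 listed (17.9%), all higher. Over all tested features 12.6% were called and 11.3% called higher. The median log2 fold change of the list was 0.45, below the 0.50 of all features, and 12 of the 28 lay above that. *EGR1* was at 14.4 and 7.41 TPM against 80.1 and 111.7 TPM (log2 fold change 3.07, limma adjusted p 0.0227). *EGR3* (1.70), *KLF2* (1.15) and *EGR2* (1.04), all transcription factor genes, were called at 4.62 TPM or less in every library. The fifth was *MCL1*, an antiapoptotic BCL2 relative (0.98, limma adjusted p 0.0499). With siControl means of 0.760 and 0.733 TPM, *EGR3* and *EGR2* passed the filter on low values only through siCNOT4, where they were higher.

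Transcripts with known AU-rich elements, the class bound by ZFP36 proteins, gave 3 calls among 22 tested of 35 listed (13.6%, beside 12.6% of all features), all higher. Their median was 0.41, below that of all features. *BIRC3*, an inhibitor of apoptosis, was at 0.971 and 0.521 TPM against 4.20 and 3.71 TPM (1.52, limma adjusted p 0.0244). With a siControl mean of 0.746 TPM, *BIRC3* passed the filter on low values only through siCNOT4, where it was higher. *PTGS2*, the inducible cyclooxygenase, was at 2.15 and 0.893 TPM against 4.53 and 5.57 TPM (1.30, limma adjusted p 0.0469). The other called gene was *MCL1*, 1 of 5 genes shared with the immediate early list.

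Other p53 targets, a class in which *BTG2* is usually counted, gave 5 calls among 23 tested (21.7%), 4 higher and 1 lower. Over all tested features 12.6% were called, 11.3% higher and 1.30% lower. The median log2 fold change of the list was 0.34, below the 0.50 of all features, and 10 of the 23 lay above that. *TP53I3* was at 8.19 and 9.42 TPM against 26.3 and 26.9 TPM (limma adjusted p 0.0288). *MDM2*, the ubiquitin ligase for p53, was at 106.1 and 77.0 TPM against 186.1 and 191.8 TPM (1.06, limma adjusted p 0.0333). *TP53INP1* (log2 fold change 1.397, limma adjusted p 0.0496) and *DDB2* (0.73, limma adjusted p 0.0387) were also higher. *GDF15*, a secreted stress factor, was at 13.1 and 16.3 TPM against 2.30 and 2.80 TPM (-2.14, limma adjusted p 0.0228).

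Profiles over the 4 libraries were compared by the Euclidean distance between centred log2(TPM + 1) values, among 11394 other features with a mean of at least 5 TPM. The 3 most like *ZFP36* were *RNFT1* (distance 0.061), *NUMBL* (0.064) and *CDKN2D* (0.069). *RNFT1* was at 23.2 and 17.7 TPM against 45.2 and 54.8 TPM. The 3 most like *TOB1* were *HNRNPU-AS1* (0.031), *NT5C3* (0.033) and *KIAA0141* (0.036). With 4 libraries such a likeness is a description only.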

How the data were processed

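The authors deposited 1 table of TPM per library (unit per the file headers). The submitters' processing notes name FastQC 0.11.2, STAR 2.5.3a, featureCounts and the build hg19, without roles; the annotation is not given in the sources used here, so coordinates printed here come from GENCODE 29 or RefSeq on GRCh38, matched by symbol. TPM was transformed to log2(TPM + 1), which understates the change of low genes, and features with a mean of at least 1 TPM were kept (14208). Groups came from sample titles. They were compared with limma 3.58.1 (lmFit, eBayes with trend, R 4.3.3) without covariates, with Benjamini-Hochberg adjustment over all tested features and a threshold of 0.05. The step was tested on simulated data. Shares were compared by exact permutation. Relative TPM steps between libraries came from features at or below 0.1 TPM. Depth was then estimated from 327 features of low TPM and annotated lengths. Intervals from this depth cover counting error only. Sequence searches used Python 3.11.15. Length and GC trends were removed with splines for 13733 features.

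Text names all 9 members, *CNOT4*, up to 4 called genes per list by size of change (the top 2 where fewer than 2 were called), and the 3 features most like the highest and lowest member. The called genes *MCL1* (immediate early list) and *DDB2* (p53 targets), the markers *COL1A1*, *VIM* and *EPCAM*, and *TOB1-AS1* and *TOB2P1* were named after their values were seen. Members and lists were chosen with earlier results of these data known. Alternatives were another pseudocount, 2 other filters, 3 scalings, a replicate block and leaving out each library. One *BTG1* sequence is not reported here.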

Additional observations from a re-analysis of the deposited data

How the results depend on the processing

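The count of 1792 called features was 558 with a pseudocount of 0.1, 908 with no filter on low values, 147 with a mean of at least 5 TPM, 1247 under TMM scaling, 2179 under quantile normalization, 3497 after removal of length and GC trends and 450 to 11311 when 1 library was left out; the highest came without siControl replicate 1 (8171 without siControl replicate 2). With 1 library left in a group, that library is assumed to vary like the other group. Members called were 0 with a pseudocount of 0.1 (beside 3.93% of all features), 0 with no filter (4.60%), 0 with a mean of at least 5 TPM (1.29%), 2 after quantile normalization (*TOB1* and *ZFP36L2*; 15.3%) and 0 to 6 without 1 library (3.17% to 79.6%). After TMM scaling the 1 member called was *TOB1* in place of *ZFP36* (8.78%). The 14 called genes of the 5 lists became 5, 6 and 2 in the first 3 of these settings, 32 after quantile normalization, 33 after trend removal, and 4 to 82 without 1 library.

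The median of the members was -0.37 after TMM scaling and -0.21 after quantile normalization, while that relative to all features stayed between -0.38 and -0.18 in every setting. *CNOT4* was -0.95 after TMM scaling and -1.15 after quantile normalization, both past the threshold, and -0.70 to -0.32 without 1 library. Directions turned for *BTG1* (-0.39 after TMM scaling, -0.26 after quantile normalization, -0.18 after trend removal), *BTG2* (-0.32, TMM), *BTG3* (-0.37, TMM) and *ZFP36L1* (-0.16, TMM; -0.21, quantile normalization). Without 1 library the ranges were -0.053 to 0.40 for *BTG3*, -0.033 to 0.74 for *ZFP36L1*, -0.37 to 0.23 for *ZFP36L2* and -0.40 to 0.22 for *TOB2*. TMM scaling and quantile normalization take out the general shift by construction; for the other settings the cause was not tested.

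The replicate numbers are shared by the groups, but with 2 pairs and no label tying them to a batch they are not taken to pair the libraries. Differences between replicates correlated between the groups with r = 0.171 across genes, which are not independent. With the number as a replicate block, 3655 features and 30 list genes (4 of them deadenylase subunits) were called and *ZFP36* stayed the 1 member called (limma adjusted p 0.0294).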

Other observations

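Features were also sorted by the elements that ZFP36 and Pumilio proteins read in the 3′ UTR. The 1076 tested genes with the AU-rich nonamer had a median log2 fold change of 0.69, against 0.49 for the 11083 without it, and 10.5% against 12.7% were called. Their transcripts were longer (median 5290 against 3061 bases), and the difference between the siControl replicates was larger as well (0.65 against 0.38). The 3441 genes with the Pumilio motif showed the same order, with medians of 0.66 against 0.45, called shares of 11.04% against 13.04%, and siControl replicate differences of 0.63 against 0.31. The part of transcript length in these differences was not tested.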
